A study of Mus musculus with 4 samples.

Results

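Zfp800 to Zfp999 are mouse C2H2 zinc finger genes, taken here as every accessible region whose assigned gene name falls between Zfp800 and Zfp999. The rule reads the gene name and no measured value, although the name range was proposed with earlier results of these data known. They comprise 182 peaks of 70 genes on 14 chromosomes, of 130941 peaks in all. Open chromatin was read by fast-ATAC, an assay whose transposase cuts and tags DNA that nucleosomes leave free. The cells were Lin-Sca1+cKit+ cells purified by flow cytometry from bone marrow, where blood stem cells and their early progeny are enriched. The 4 libraries came from 2 Helios null and 2 wild-type mice, all 10 weeks old, each library from its own mouse. Helios, encoded by Ikzf2, is a zinc finger transcription factor of the Ikaros family. The sources used here do not say how the null allele was made or in which tissues it acts. Accessibility is given as the normalised count (CPM), the part of a library's counts in peaks that one peak holds, on a common scale after adjusting between libraries.

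Many genes of this name range encode KRAB zinc finger proteins. Their finger arrays bind particular DNA sequences, often within endogenous retroviruses and other transposable elements, and their KRAB domain recruits Trim28 (KAP1). Trim28 in turn brings the H3K9 methyltransferase Setdb1, HP1 proteins and histone deacetylases, which keep the bound element silent. The genes arose by repeated local duplication and stand in tandem arrays, where neighbours can be near-identical in sequence.

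The members' own promoters show both features, and the windows that carry the accessibility results below are printed first. RefSeq windows of 300 bases, from 250 before to 50 after the transcription start (build GRCm38.p6, whose primary chromosomes are mm10), existed for 64 of the 70 genes. In the chromosome 17 array from Zfp948 to Zfp945, windows of 10 genes with a start-site peak were searched for shared words. The 3 windows below are written 5′ to 3′ on the strand of the gene, and capitals mark runs of at least 10 bases that at least 4 of the 10 windows hold on the same strand. They are Zfp820 at chr17:21845710-21846009 on the minus strand, Zfp947 at chr17:22165928-22166227 on the minus strand, and Zfp946 at chr17:22423952-22424251 on the plus strand.
Zfp820: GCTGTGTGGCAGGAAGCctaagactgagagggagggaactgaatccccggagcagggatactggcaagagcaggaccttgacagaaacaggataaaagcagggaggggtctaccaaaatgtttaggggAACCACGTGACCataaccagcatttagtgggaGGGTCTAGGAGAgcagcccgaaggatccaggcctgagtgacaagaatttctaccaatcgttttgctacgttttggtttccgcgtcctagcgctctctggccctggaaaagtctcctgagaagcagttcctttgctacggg
Zfp947: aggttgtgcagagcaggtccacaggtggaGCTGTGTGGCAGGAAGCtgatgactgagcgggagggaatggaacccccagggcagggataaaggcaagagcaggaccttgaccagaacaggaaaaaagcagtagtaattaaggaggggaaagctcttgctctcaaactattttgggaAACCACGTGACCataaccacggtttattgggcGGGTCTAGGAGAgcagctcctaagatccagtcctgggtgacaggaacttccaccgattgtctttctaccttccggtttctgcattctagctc
Zfp946: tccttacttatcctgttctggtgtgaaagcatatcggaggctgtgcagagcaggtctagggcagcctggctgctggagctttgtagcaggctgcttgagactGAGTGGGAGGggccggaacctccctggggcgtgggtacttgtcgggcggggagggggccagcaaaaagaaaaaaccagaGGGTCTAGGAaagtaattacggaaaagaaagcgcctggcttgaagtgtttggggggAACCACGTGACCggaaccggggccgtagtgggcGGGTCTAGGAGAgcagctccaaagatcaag
Runs were kept only if at least 4 of the 10 windows held them, so a count of 4 follows from the choice. The shares over all windows include these windows. The word AACCACGTGACC stood in 4 of the 10 windows and, on either strand, in 0.0274% of all 32851 windows of the table. GGGTCTAGGAGA stood in 4 of the 10 and in 0.0213% of all windows, and GCTGTGTGGCAGG in 4 of the 10 and in 0.0152%. The shorter CACGTGACC, which AACCACGTGACC contains, stood in 6 of these 10 windows, in 6 of the 58 member windows with a start-site peak and in 1.11% of all windows.

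Zfp942 and Zfp943 start head to head, with 194 bases common to their windows, and the window of Zfp944, 399 kb away, is almost a copy of that of Zfp942. The local alignment of the windows held 274 identical bases in 275 columns. The pair is printed because their accessibility could not be counted apart wherever reads fall inside this copy. Capitals mark the longest identical stretch, 207 bases, with Zfp942 at chr17:21962415-21962714 and Zfp944 at chr17:22361351-22361650, both on the minus strand.
Zfp942: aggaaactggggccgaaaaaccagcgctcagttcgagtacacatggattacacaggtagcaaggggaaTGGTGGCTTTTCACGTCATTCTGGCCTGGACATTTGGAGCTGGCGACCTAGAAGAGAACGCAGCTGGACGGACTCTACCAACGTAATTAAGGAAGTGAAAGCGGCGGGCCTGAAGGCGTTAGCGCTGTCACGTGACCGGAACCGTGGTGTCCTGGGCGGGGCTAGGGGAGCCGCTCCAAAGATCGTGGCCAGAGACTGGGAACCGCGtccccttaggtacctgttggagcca
Zfp944: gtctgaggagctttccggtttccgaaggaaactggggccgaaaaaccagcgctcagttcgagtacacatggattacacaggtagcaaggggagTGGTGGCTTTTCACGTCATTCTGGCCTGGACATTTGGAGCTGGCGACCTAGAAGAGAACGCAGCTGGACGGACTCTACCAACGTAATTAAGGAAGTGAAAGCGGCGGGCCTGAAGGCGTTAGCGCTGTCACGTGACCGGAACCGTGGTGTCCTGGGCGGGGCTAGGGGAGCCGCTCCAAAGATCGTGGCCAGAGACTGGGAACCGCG
On chromosome 2, Zfp970 (chr2:177464492-177464791) and Zfp971 (chr2:178023034-178023333), both on the plus strand, were 91.9% identical over their windows. In this pair capitals mark bases that differ or stand against a gap.
Zfp970: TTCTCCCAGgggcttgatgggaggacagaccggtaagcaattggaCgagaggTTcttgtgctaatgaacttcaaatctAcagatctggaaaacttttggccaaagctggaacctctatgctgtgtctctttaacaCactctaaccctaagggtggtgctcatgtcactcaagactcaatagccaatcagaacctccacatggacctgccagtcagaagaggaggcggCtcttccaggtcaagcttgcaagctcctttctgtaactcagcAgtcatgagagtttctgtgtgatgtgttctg
Zfp971: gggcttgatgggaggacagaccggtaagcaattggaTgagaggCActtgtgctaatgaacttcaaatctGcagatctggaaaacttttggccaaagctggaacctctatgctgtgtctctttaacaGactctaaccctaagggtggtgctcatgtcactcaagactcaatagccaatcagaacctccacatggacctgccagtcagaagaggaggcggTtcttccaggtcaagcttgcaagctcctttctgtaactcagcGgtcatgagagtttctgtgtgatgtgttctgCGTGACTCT
The sources used here do not say how reads that map equally well to several places were treated. Values at such copies are therefore uncertain as to which copy they came from. Most members were less alike than these, and the median identity over all 1653 pairs of the 58 member windows was 50%. Over the 45 pairs of the chromosome 17 array it was 49.4%.

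The core GGGAA is the short word that Ikaros-family zinc fingers are known to bind. On either strand it stood in 41 of the 58 member windows (70.7%) and in 62.7% of all windows, and in 10 of 10 windows of the chromosome 17 array. Windows with and without it lay on both sides of 0. The log2 fold change, Helios null over wild type, was negative at 36 of the 41 members with the word, with a median of -0.56. It was negative at 10 of the 17 without it, with a median of -0.22, among them Zfp972 (-0.98), Zfp954 (-0.74) and Zfp970 (-0.70). Both null libraries lay below both wild-type libraries at 33 members with the word and 10 without it, and above at 3 and 4. Over all start-site peaks the shares were 38.8% below and 29.4% above. The 41 members with the word include all 10 starts of the chromosome 17 array, each of them negative, with a median of -0.89. The part of the word in these differences was not tested, and the same split was not made over all genes. The window of Zfp830 (chr11:82764095-82764394, plus strand) held none, so its letters are all in lower case. The same was true of Zfp866 (chr8:69774862-69775161, minus strand) in the chromosome 8 array. Zfp830 and Zfp866 were higher in Helios null cells with no overlap of the groups (edgeR adjusted p = 0.256 and 0.568). Of the other starts higher in this way, Zfp879, Zfp853 and Zfp952 held the word, while Zfp867 and Zfp956 did not. In the window of Zfp809 (chr9:22225453-22225752, plus strand) capitals mark the 1 match.
Zfp830: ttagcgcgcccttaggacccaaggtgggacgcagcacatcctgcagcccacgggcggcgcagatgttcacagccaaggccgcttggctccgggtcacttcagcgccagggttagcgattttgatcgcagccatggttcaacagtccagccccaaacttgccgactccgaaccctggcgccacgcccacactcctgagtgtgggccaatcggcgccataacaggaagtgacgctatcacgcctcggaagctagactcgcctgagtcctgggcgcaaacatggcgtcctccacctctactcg
Zfp866: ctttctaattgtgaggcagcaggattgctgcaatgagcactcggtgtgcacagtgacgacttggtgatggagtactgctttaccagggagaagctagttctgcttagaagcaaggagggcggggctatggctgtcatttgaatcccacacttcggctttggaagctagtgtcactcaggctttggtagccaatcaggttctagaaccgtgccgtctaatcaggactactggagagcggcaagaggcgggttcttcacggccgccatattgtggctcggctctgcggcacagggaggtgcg
Zfp809: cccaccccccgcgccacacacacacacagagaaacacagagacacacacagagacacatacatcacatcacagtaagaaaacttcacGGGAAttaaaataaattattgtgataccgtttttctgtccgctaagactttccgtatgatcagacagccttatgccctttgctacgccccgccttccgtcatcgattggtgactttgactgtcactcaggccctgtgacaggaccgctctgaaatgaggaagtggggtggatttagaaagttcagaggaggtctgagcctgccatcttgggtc
A match or its absence describes the letters of the window only.

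Counts in peaks totalled between 16033211 and 30290804 per library, with wild type 2 the shallowest. Library number 1 was the deeper one in both genotypes and held 1166 (null) and 1715 (wild type) counts at Y-linked genes, against 2 and 5 for number 2, so number followed sex and depth together. A difference within a single number compares 1 library with 1 and is given as a value with no test. An edgeR fit with the number as a block is given as an alternative only. The Ikzf2 promoter held 22.2 and 24.0 CPM in Helios null, against 32.8 and 48.2 CPM in wild type (log2 fold change -0.80, edgeR adjusted p = 0.189). Of 11 marker genes of Lin-Sca1+cKit+ cells 10 had a peak, Ly6a having none, and their peaks summed to 973 to 981 CPM in Helios null and 954 to 966 in wild type. Among other cell types the summed CPM was 159 to 211 in Helios null against 124 to 133 in wild type for megakaryocytes (3 of 4 genes with a peak, not Ppbp) and 239 to 261 against 200.3 to 223 for stroma and endothelium (5 of 5). It was 142 to 147 against 149 to 161 for B cells (5 of 6, not Cd79a), 133 to 151 against 121 to 126 for T and NK cells (3 of 6, not Cd3g, Cd8a or Ncr1), 190 to 193 against 171 to 189 for mature myeloid cells (6 of 6) and 145 to 162 against 148 to 151 for erythroid cells (5 of 6, not Hba-a1). The part of these differences in the results below was not tested, and in sorted bulk cells a different mix of cells and a different accessibility per cell cannot be told apart.

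Member peaks lay mostly lower in Helios null cells, but no single one passed the test over all peaks. With edgeR's quasi-likelihood test and Benjamini-Hochberg adjustment over 130754 tested peaks, 0 of the 182 members had an adjusted p under 0.05, where 8 peaks in all did (0.00612%, or 0.00535% lower and 0.000765% higher), and the smallest adjusted p of a member was 0.189. At an unadjusted p under 0.05, 56 members were lower and 0 higher in Helios null, against 11.5% lower and 8.29% higher over all tested peaks. limma-voom called 0 members, and DESeq2 called 6, each lower and 5 of them in 1 array on chromosome 17 (1.98% of the peaks it adjusted were called lower and 0.901% higher). With the library number as a block, edgeR called 60 members lower (12.8% of all tested peaks) and 2 higher (10.6%). The labels do not state that same-numbered libraries are paired. In the authors' deposited table, which is made from the same libraries, 3 of the 106 members with an adjusted p were called, each lower, against 1.41% called in either direction and 0.958% called lower. Leaving out 1 library leaves 1 mouse in its genotype, so the spread then comes from the other genotype's pair and the lone mouse is assumed to vary like it. Without wild type 1, edgeR called 52 members lower (12.5% of all tested peaks) and 2 higher (8.98%), and without Helios null 2 it called 1 lower (1.06%). With 2 mice per group an exact permutation test of a single value cannot go below p = 0.333.

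Both Helios null libraries lay below both wild-type libraries at 100 of the 182 member peaks (54.95%), where 28.3% of all tested peaks did so. Both lay above at 22 member peaks (12.09%), against 28.0% of all. The groups overlapped at the other 60. The median log2 fold change, Helios null over wild type, was -0.35 over members and 0.01 over all tested peaks. Within number 1 it was -0.37 and within number 2 it was -0.36, so the male pair and the female pair showed differences of like size.

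Promoters of the members lay lower as well. Members were more often at promoters than other peaks: 59 (32.42%) carried the deposited promoter-TSS class, against 15.21% of all tested peaks. The next classes were introns with 68, distant promoters with 29, intergenic regions with 15, exons with 8 and transcription ends with 3. At the 59 promoter-TSS peaks the median log2 fold change was -0.49, with 44 lower without overlap and 4 higher, against 32.3% lower and 30.8% higher over all promoter-TSS peaks. Over all members without the 28 Zfp957 peaks, none of them in this class, the median was -0.47, and whether promoters differ from other members was not tested. Without wild type 2 the promoter-TSS median was -0.30. The deposited class missed many start sites, so the most accessible peak of each gene that touches its own RefSeq window was also taken, a definition added after the values had been seen. It gave a start-site peak for 58 genes, 20 of them outside the promoter-TSS class. Of the 12 genes with none, Zfp942 starts inside the peak assigned to Zfp943, and Zfp957 and Zfp831 had only peaks away from a RefSeq start.

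At these 58 start sites both null libraries lay below both wild-type libraries in 43 genes and above in 7, against 38.8% and 29.4% of the 10516 start-site peaks of all genes. At an unadjusted p under 0.05, 30 were lower and 0 higher, against 19.9% and 6.37%. The median log2 fold change was -0.53 for Zfp800 to Zfp999 (-0.44 within number 1, -0.55 within number 2), -0.28 for the 185 genes from Zfp1 to Zfp799 and -0.04 for all genes. For Zfp1 to Zfp799 the groups did not overlap at 100 lower and 41 higher start sites, a smaller share in the same direction. Without wild type 2 the median of Zfp800 to Zfp999 was -0.31, with 48 of 58 still below 0. The 124 members away from a start site had a median of -0.28.

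**Figure D1:**
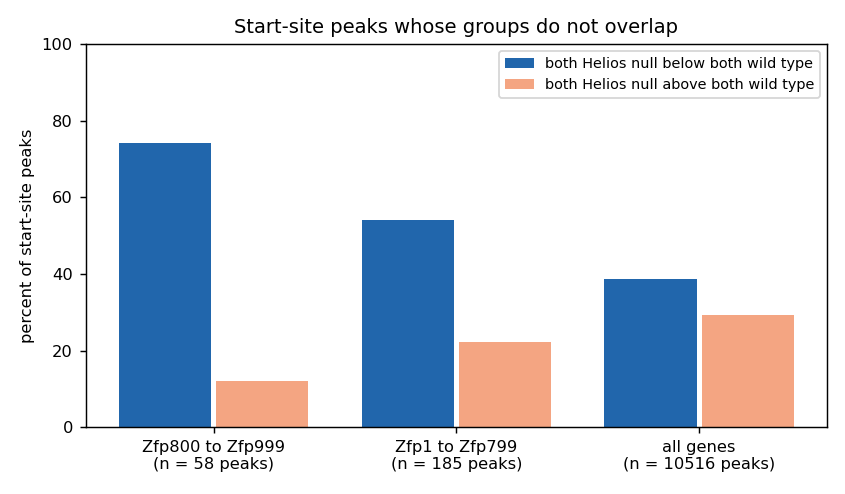
Percent of start-site peaks (vertical axis) at which both Helios null libraries lay below (blue) or above (orange) both wild-type libraries, for Zfp800 to Zfp999, Zfp1 to Zfp799 and all genes. The blue bar is highest for Zfp800 to Zfp999, at 74.14% of 58 peaks, and lowest for all genes, at 38.77% of 10516.

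**Figure D2:**
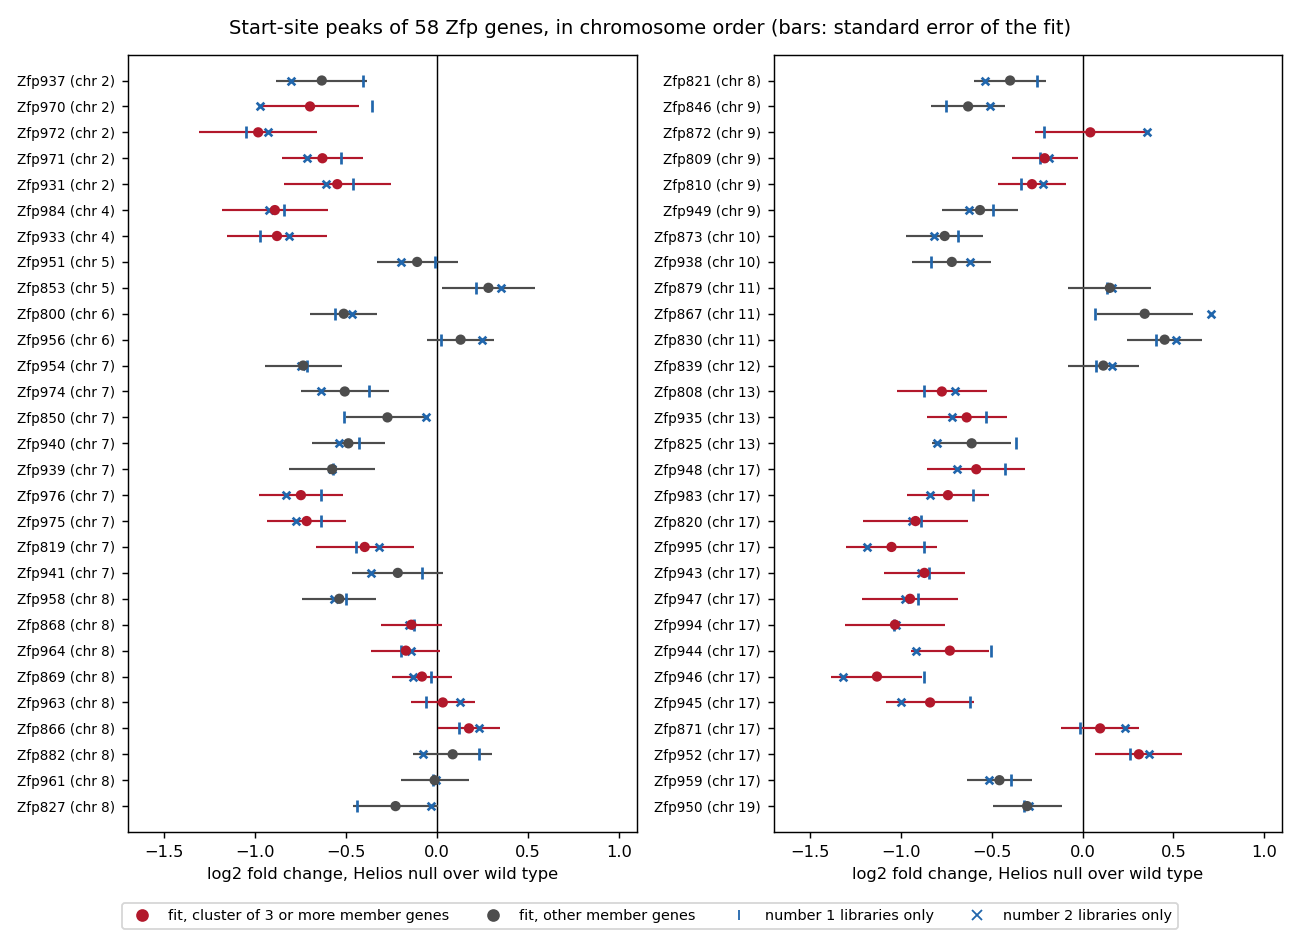
Log2 fold change, Helios null over wild type, at each of the 58 start-site peaks in chromosome order, with the standard error of the edgeR fit as a bar. Red points belong to arrays of at least 3 member genes, grey points to other members, and blue marks show the differences within library numbers 1 and 2. Of the 58 points 46 lie below 0, and the lowest run is that of the chromosome 17 array.

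The members were grouped into 37 clusters by position, joining peaks no more than 1 Mb apart. A single gene made up 26 clusters and 8 held at least 3 genes. At start sites in these 8 arrays the median log2 fold change was -0.70, with 25 of 31 lower without overlap and 2 higher. At the other 27 start sites it was -0.40, with 18 lower and 5 higher. Over all start-site peaks 38.8% were lower and 29.4% higher without overlap. Over all tested peaks the shares were 28.3% and 28.0%, beside which the peak counts of arrays and genes below are to be read.

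The chromosome 17 array from Zfp948 to Zfp945 (chr17:21566289-22888836) held the most members, with 25 peaks of 11 genes. All 25 had a negative log2 fold change, from -1.91 to -0.31 with a median of -0.89 (-0.85 within number 1, -0.94 within number 2). Both null libraries lay below both wild-type libraries at 21 of them and above at 0, against 28.3% and 28.0% of all tested peaks. The edgeR adjusted p was 0.189 at its smallest. The 22 other peaks in the same span, assigned to genes such as Zfp229, Zfp758 and Zfp760 and to predicted genes, had a median of -0.75 with 19 lower and 0 higher, so the difference covered the span and not the named members alone. Without wild type 2 the median of the 25 peaks was -0.58, and without wild type 1 it was -1.15, with 25 of 25 below 0 both times.

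Within this array the lowest adjusted values in the authors' deposited table stood at Zfp946, Zfp995 and Zfp994. The exon-class peak over the Zfp946 start (chr17:22423787-22424965) held 15.1 and 18.02 CPM in Helios null, against 27.7 and 45.0 CPM in wild type. The 4 values did not overlap between groups, and wild type 2 was the highest (log2 fold change -1.13, SE 0.25, edgeR adjusted p = 0.189; adjusted p = 0.0264 in the authors' deposited table). Its start window, printed above, holds the shared words AACCACGTGACC and GGGTCTAGGAGA.

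The promoter of Zfp995 (chr17:21909079-21910110) held 8.01 and 9.25 CPM in Helios null, against 14.7 and 21.2 CPM in wild type (log2 fold change -1.05, SE 0.25; adjusted p = 0.0399 in the authors' deposited table). That of Zfp994 (chr17:22225069-22226113) held 15.3 and 24.3 CPM in Helios null, against 31.4 and 49.6 CPM in wild type (-1.03, SE 0.28; adjusted p = 0.0495 in the authors' deposited table). The groups stood apart at both promoters, and within each genotype library 2 was the higher one.

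Zfp947 held 11.8 and 17.1 CPM at its start in Helios null, against 22.2 and 33.8 CPM in wild type (log2 fold change -0.95, SE 0.26). Zfp820 held 12.1 and 19.5 CPM in Helios null, against 22.5 and 37.3 CPM in wild type (-0.92, SE 0.29). Zfp983, the most accessible start of the array, held 47.0 and 59.99 CPM in Helios null, against 71.5 and 107 CPM in wild type (-0.74, SE 0.22). All 3 starts kept the groups apart.

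The near-identical starts of Zfp942 and Zfp944 differed in the same direction. The peak over the Zfp942 and Zfp943 starts (chr17:21962181-21962968) held 13.5 and 17.1 CPM in Helios null, against 24.3 and 31.6 CPM in wild type (log2 fold change -0.87, SE 0.22). The Zfp944 start (chr17:22360321-22361889) held 22.9 and 24.4 CPM in Helios null, against 32.5 and 46.2 CPM in wild type (-0.73, SE 0.22). An intergenic peak assigned to Zfp944, outside the copy (chr17:22314272-22315325), held 11.8 and 16.9 CPM in Helios null, against 21.3 and 36.9 CPM in wild type (-1.02, SE 0.28).

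Zfp948, at one end of the array, was the start where the groups overlapped. It held 19.0 and 26.9 CPM in Helios null, against 25.6 and 43.4 CPM in wild type (log2 fold change -0.58, SE 0.27). Library 2 lay above library 1 in both genotypes at all 10 start sites of the array. Over the 58 member start sites null 2 lay above null 1 at 75.9% and wild type 2 above wild type 1 at 74.1%. Over all start-site peaks these shares were 57.2% and 51.1%. The part of sex or depth in the levels of this array was not tested, and the null values lay below the wild-type values within each number.

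**Figure D3:**
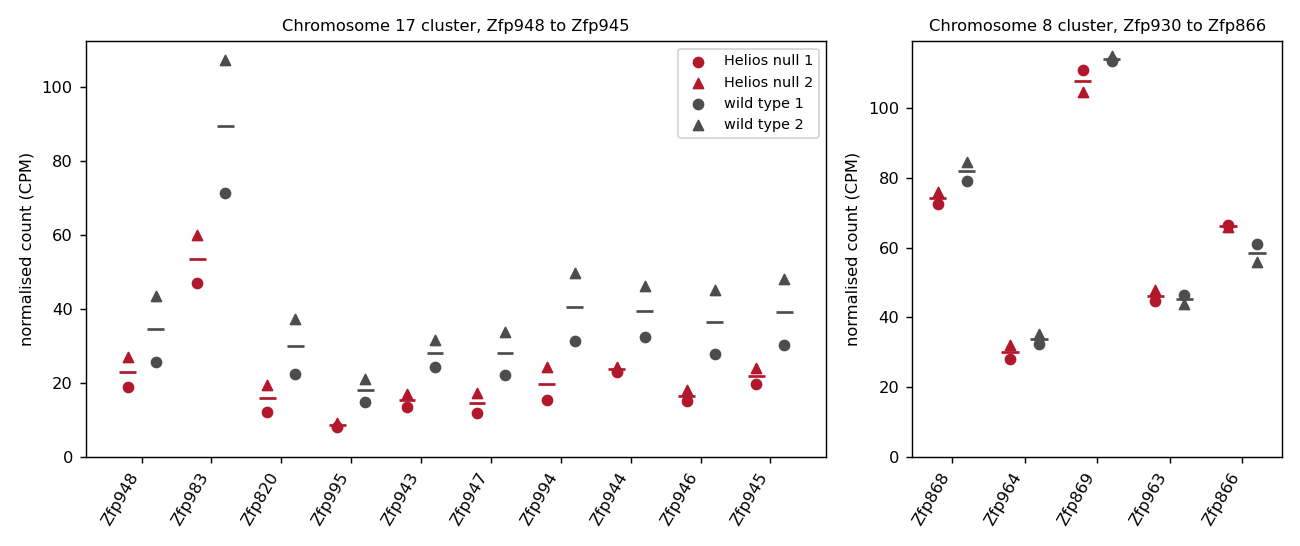
Normalised counts (CPM, vertical axes from 0) at the start-site peaks of the chromosome 17 array (left) and of the chromosome 8 array (right), with circles for library 1, triangles for library 2 and lines for the mean of each genotype. On chromosome 17 the null libraries lie below the wild-type libraries at 9 of 10 genes, and on chromosome 8 the values of the genotypes lie close together.

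Several other arrays shared the direction. On chromosome 4, the 4 peaks of Zfp985, Zfp984 and Zfp933 had a median log2 fold change of -1.08, and all 4 kept the groups apart. Its 2 start-site peaks, of Zfp984 and Zfp933, had a median of -0.89. The remaining 2 held little signal. The Zfp985 intron peak held 0.594 and 0.654 CPM in Helios null, against 1.3 and 1.74 CPM in wild type (-1.26, SE 0.43). The Zfp933 intron peak held 0.759 and 0.393 CPM in Helios null, against 1.4 and 2.00 CPM in wild type (-1.50, SE 0.47). The 2 peaks of other genes in the same span had a median of -0.97. The Zfp933 promoter there held 11.3 and 18.5 CPM in Helios null, against 22.3 and 32.6 CPM in wild type (-0.88, SE 0.28). With 1 library left out the median of this array ranged over -1.36 (without wild type 1) to -0.82 (without wild type 2).

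On chromosome 13, all 3 peaks, the promoters of Zfp808, Zfp935 and Zfp934, were lower without overlap, with a median of -0.74. The 2 other peaks in the same span had a median of -0.80. Zfp935 held 31.2 and 39.3 CPM in Helios null, against 45.2 and 64.7 CPM in wild type (log2 fold change -0.64, SE 0.22). The chromosome 13 median was -0.49 without wild type 2 and -0.50 without Helios null 1.

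On chromosome 7, 7 of the 8 peaks of Zfp977, Zfp976, Zfp975 and Zfp819 were lower without overlap, with a median of -0.74. The 47 other peaks in the same span had a median of -0.34, with 22 lower and 2 higher. The Zfp975 promoter held 31.4 and 39.6 CPM in Helios null, against 48.8 and 67.9 CPM in wild type (log2 fold change -0.72, SE 0.22). An intron-class peak over the RefSeq start of Zfp976 held 21.5 and 27.7 CPM in Helios null, against 33.6 and 49.3 CPM in wild type (-0.75, SE 0.23).

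On chromosome 2, where the windows of Zfp970 and Zfp971 are near-copies, 7 of 9 peaks were lower without overlap and the median was -0.67. The 5 other peaks in the same span had a median of -0.68, with 4 lower and 0 higher. Zfp972 held 4.26 and 7.24 CPM at its promoter in Helios null, against 8.90 and 13.9 CPM in wild type (log2 fold change -0.98, SE 0.32). Zfp970 held 7.92 and 8.07 CPM in Helios null, against 10.2 and 15.9 CPM in wild type (-0.70, SE 0.27). Zfp971 held 12.6 and 14.4 CPM in Helios null, against 18.1 and 23.8 CPM in wild type (-0.63, SE 0.22). The chromosome 2 median was -0.43 without wild type 2.

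Not all arrays behaved this way. On chromosome 8, the 11 peaks of 6 genes from Zfp930 to Zfp866 centred on a log2 fold change of 0.02 (median). Without overlap 4 were lower (36.36%) and 3 higher (27.27%), against 28.3% and 28.0% of all tested peaks. The 10 other peaks in the same span had a median of -0.22, with 6 lower and 1 higher. The array's start sites are among the most accessible of all members. At its 5 start sites the median was -0.08, with 3 lower and 1 higher without overlap, against 38.8% and 29.4% of all start-site peaks. The 3 lower ones were Zfp869, Zfp868 and Zfp964 (-0.17, SE 0.19). Zfp869 held 111 and 105 CPM in Helios null, against 114 and 115 CPM in wild type (-0.08, SE 0.16). Zfp868 held 72.6 and 76.0 CPM in Helios null, against 79.3 and 84.5 CPM in wild type (-0.14, SE 0.17), and with loess offsets on mean signal its log2 fold change was 0.03.

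Zfp866 held 66.5 and 65.9 CPM in Helios null, against 61.1 and 56.0 CPM in wild type (log2 fold change 0.18, SE 0.17, and -0.13 with the gene density offsets described below), both null values above both wild-type values. Zfp963 held 44.7 and 47.9 CPM in Helios null, against 46.5 and 43.9 CPM in wild type (0.03, SE 0.18, and -0.27 with gene density offsets), with the groups overlapping. The sign of the array's median turned with 1 library left out, at -0.08 without wild type 2 and -0.05 without Helios null 1, so its direction rested on single libraries.

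A second chromosome 17 array, of Zfp871, Zfp811, Zfp870 and Zfp952, lay further along the chromosome and on the other side of 0. None of its 8 peaks was lower without overlap and 5 were higher, against 28.3% and 28.0% of all tested peaks. Among the 5, an intergenic and an exon peak of Zfp871 and an intergenic peak of Zfp952 held at most 2.57 CPM in any library. The Zfp871 start, where the groups overlapped, held 19.4 and 18.3 CPM in Helios null, against 19.6 and 15.6 CPM in wild type (0.10, SE 0.21). The median of the array was 0.26, and the 11 other peaks in its span had a median of 0.23. Its most accessible peak, of the distant promoter class and assigned to Zfp870 (chr17:32890984-32892053), held 36.4 and 32.9 CPM in Helios null, against 32.2 and 28.6 CPM in wild type (log2 fold change 0.19, SE 0.19). Zfp952 held 10.7 and 10.1 CPM at its start in Helios null, against 8.87 and 7.81 CPM in wild type (0.31, SE 0.24). The promoter-TSS peak assigned to Zfp811 carried the label of an antisense RNA promoter and was not a start-site peak. It held 0.693 and 1.05 CPM in Helios null, against 0.997 and 0.710 CPM in wild type (log2 fold change -0.02, SE 0.45). No other gene's highest promoter-TSS peak among the members held less. The sign turned with total counts (0.0045) and with loess offsets on mean signal (0.15). The median of this array was -0.04 with gene density offsets, described below, in place of the usual scaling.

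Single genes away from the arrays lay on both sides of 0. Zfp954, on chromosome 7 and among the most accessible member promoters, held 43.8 and 57.9 CPM in Helios null, against 72.0 and 97.4 CPM in wild type (log2 fold change -0.74, SE 0.21). Zfp959, on chromosome 17, held 42.7 and 45.5 CPM in Helios null, against 56.2 and 65.0 CPM in wild type (-0.46, SE 0.18). Zfp958, on chromosome 8, held 51.2 and 65.1 CPM at its start in Helios null, against 72.4 and 96.5 CPM in wild type (-0.54, SE 0.20). The groups were apart at all 3 starts.

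A pair on chromosome 10 lay lower at both starts. Zfp873 held 28.2 and 35.1 CPM in Helios null, against 45.4 and 61.8 CPM in wild type (log2 fold change -0.76, SE 0.21). Zfp938 held 14.1 and 18.7 CPM in Helios null, against 25.2 and 28.8 CPM in wild type (-0.72, SE 0.22). A pair on chromosome 8, Zfp882 and Zfp961, showed no such difference: Zfp961 held 39.9 and 35.4 CPM at its promoter in Helios null, against 40.5 and 35.5 CPM in wild type (-0.01, SE 0.19).

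Genes with many peaks differed from each other. Zfp949, on chromosome 9, had 7 peaks over its promoter and the region before it, all with a negative log2 fold change and 6 without overlap, with a median of -0.56. Its start held 21.4 and 25.2 CPM in Helios null, against 30.1 and 38.9 CPM in wild type (-0.56, SE 0.21). Zfp958 had 5 peaks, all negative, with a median of -0.82 and 3 without overlap. Zfp831, on chromosome 2, had 10 peaks in introns and distant promoters, with 4 lower and 2 higher without overlap and a median of -0.20 that lay at 0.04 within number 1 and -0.42 within number 2.

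Some peaks of the promoter-TSS class held little signal. Besides Zfp811 and Zfp932, the genes lowest at their highest promoter-TSS peak were Zfp976, Zfp942, Zfp946 and Zfp960. Each of these peaks was a flank of a larger peak or, for Zfp960, the only peak of the gene. The RefSeq starts of Zfp976, Zfp942 and Zfp946 lay in the larger peaks, which were more accessible and whose values are given above. The Zfp976 flank held 0.627 and 1.31 CPM in Helios null, against 1.56 and 2.65 CPM in wild type (log2 fold change -1.11, SE 0.46). The Zfp946 flank held 1.85 and 2.57 CPM in Helios null, against 3.79 and 6.005 CPM in wild type (-1.14, SE 0.34). The Zfp942 peak held 1.15 and 1.18 CPM in Helios null, against 1.66 and 2.13 CPM in wild type (-0.68, SE 0.37). Zfp960 held 3.43 and 6.501 CPM in Helios null, against 4.09 and 7.88 CPM in wild type (-0.25, SE 0.39), where the groups overlapped and the sign turned without wild type 2 (0.27).

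On the higher side, Zfp839 held 12.9 and 9.08 CPM at an intronic peak (chr12:110851397-110851882) in Helios null, against 8.60 and 6.07 CPM in wild type (log2 fold change 0.58, SE 0.28, edgeR adjusted p = 0.276). Zfp867 held 13.1 and 12.8 CPM at its start in Helios null, against 12.5 and 7.81 CPM in wild type (0.34, SE 0.26), a difference that lay at 0.07 within number 1 and 0.71 within number 2. Zfp853 held 7.39 and 7.29 CPM at its promoter in Helios null, against 6.34 and 5.68 CPM in wild type (0.28, SE 0.25). None of them passed the test, although the groups did not overlap.

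Zfp957 accounts for 28 of the 182 member peaks and none of the start sites. Of these peaks 15 lie inside introns of its neighbour Vwa8, up to 148 kb from Zfp957, so they carry its name by proximity only. Their number pulls the member median towards 0, and without them it was -0.47. The most accessible of them (chr14:79199864-79200886) held 28.4 and 26.7 CPM in Helios null, against 21.1 and 22.6 CPM in wild type (log2 fold change 0.34, SE 0.19). Groups overlapped at 21 of the 28.

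Members with a known role were read at their promoter-TSS peak. Zfp809 binds the primer binding site of murine leukaemia viruses and recruits Trim28 to silence them. Its promoter (chr9:22225371-22226272) held 34.4 and 37.3 CPM in Helios null, against 40.5 and 42.3 CPM in wild type (log2 fold change -0.21, SE 0.18, edgeR adjusted p = 0.516). The 4 values did not overlap, but the difference was small.

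Zfp932 represses endogenous retroviruses in mouse embryonic stem cells. The promoter-TSS peak assigned to it carried the label of a lincRNA promoter and was not a start-site peak. This peak held 2.18 and 2.62 CPM in Helios null, against 3.16 and 3.55 CPM in wild type (log2 fold change -0.48, SE 0.31). Zfp819, linked to silencing of transposable elements in pluripotent cells, held 5.57 and 4.84 CPM in Helios null, against 7.61 and 6.07 CPM in wild type (-0.40, SE 0.27).

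Zfp800 is needed for pancreas development in mice. Its promoter-TSS peak held 13.0 and 15.4 CPM in Helios null, against 17.2 and 19.0 CPM in wild type (log2 fold change -0.35, SE 0.22). A more accessible peak at its RefSeq start (chr6:28260803-28262553) held 44.4 and 53.4 CPM in Helios null, against 65.6 and 74.0 CPM in wild type (-0.51, SE 0.18). All 10 Zfp800 peaks had a negative log2 fold change, and 8 of them kept the groups apart.

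Zfp827, whose human counterpart recruits the NuRD complex to telomeres, held 10.4 and 13.4 CPM at its promoter in Helios null, against 14.1 and 13.7 CPM in wild type (log2 fold change -0.23, SE 0.23). An intronic Zfp827 peak with more signal (chr8:79029154-79030717) held 18.6 and 23.7 CPM in Helios null, against 28.3 and 30.3 CPM in wild type (-0.47, SE 0.21). Zfp830 (Omcg1), which mouse blood stem cells need to survive, lay on the other side. Its promoter (chr11:82763726-82765141) held 41.8 and 34.7 CPM in Helios null, against 31.5 and 24.3 CPM in wild type (0.45, SE 0.21, edgeR adjusted p = 0.256), with both null libraries above both wild-type libraries.

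The silencing machinery that KRAB proteins recruit showed no common direction. Of 30 listed partner genes 26 had a peak, Daxx, Morc2a, Tasor and Resf1 having none under these names. Over their 107 peaks the median log2 fold change was 0.06, with 25 lower (23.36%) and 33 higher (30.84%) without overlap, near the 28.3% and 28.0% of all tested peaks. edgeR called 0 of them, with 5 lower and 13 higher at an unadjusted p under 0.05 (11.5% and 8.29% of all tested peaks), while DESeq2 called 1 and limma-voom 0. At the 22 partner start sites the median was -0.06, with 10 lower and 5 higher without overlap (38.8% and 29.4% of all start-site peaks) and 4 lower and 0 higher at an unadjusted p under 0.05 (19.9% and 6.37%).

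Trim28, the corepressor itself, held 74.9 and 84.3 CPM at its promoter in Helios null, against 95.3 and 134 CPM in wild type (log2 fold change -0.53, SE 0.20, edgeR adjusted p = 0.207), with the groups apart. The HP1 genes differed less. Cbx3 held 54.1 and 57.2 CPM in Helios null, against 50.8 and 48.8 CPM in wild type (0.16), and Cbx5 held 56.6 and 48.4 CPM in Helios null, against 54.4 and 47.1 CPM in wild type (0.05, and -0.245 with gene density offsets). Setdb1 had 7.06 and 7.85 CPM at its start in Helios null, against 7.37 and 7.43 CPM in wild type, and the groups overlapped. Among partners singled out after their values were seen, the deacetylase gene Hdac2 had the lowest start-site fold change (-0.95), and the chromatin remodeller gene Smarcad1 lay at -0.80.

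Over all start sites the fold change varied with local gene density. Across classes of promoter CpG count, described below, medians over all genes stayed between -0.08 and 0.06, while those of the members varied more. The part of density and composition in the members' differences was not tested. Over all start sites the median log2 fold change was -0.60 where at most 5 protein-coding genes lay within 0.5 Mb and 0.19 where at least 31 did. Members stood below the median of all genes in every density class that held any. It was -0.68 for the 18 members against -0.08 for all genes at 11 to 15 genes, -0.58 for 11 members against 0.08 at 16 to 20, -0.21 for 13 members against 0.17 at 21 to 30, and -0.15 for 10 members against 0.19 at 31 or more. At 6 to 10 genes it was -0.55 for 6 members and -0.29 for all. These classes hold few members, under 20 each. Zfp1 to Zfp799 lay at -0.26 at 6 to 10 genes, -0.45 at 11 to 15 and -0.07 at 16 to 20. They lay at -0.46 at 21 to 30 and -0.18 at 31 or more, below the members in both.

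Member start windows were poor in CpG, with a median of 10 CpG dinucleotides and 53.0% GC, against 17 and 56.3% for Zfp1 to Zfp799 and 20 and 61.0% for all genes. The median log2 fold change of members lay below that of all genes in each of the 6 CpG classes, each with few members. It was -0.70 for 5 members against 0.06 for all genes at 0 to 4 CpG, -0.64 for 22 members against 0.01 at 5 to 9, and -0.51 for 14 members against -0.07 at 10 to 14. It was -0.11 for 4 members against -0.03 at 15 to 19, -0.20 for 10 members against -0.02 at 20 to 24, and -0.40 for 3 members against -0.08 at 25 or more. Zfp1 to Zfp799 lay at -0.69 at 0 to 4 CpG, -0.44 at 5 to 9 and -0.30 at 10 to 14. They lay at -0.29 at 15 to 19 and -0.32 at 20 to 24, below the members in both, and at -0.05 at 25 or more. When a smooth trend of the fold change with gene density was removed, an adjustment chosen after seeing the data, the median over all members was -0.42 and that of the first chromosome 17 array -1.02.

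**Figure D4:**
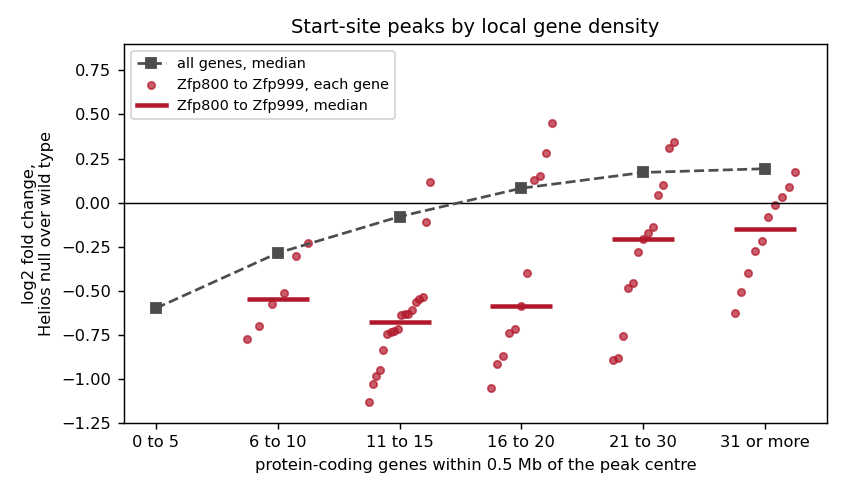
Log2 fold change, Helios null over wild type, at start-site peaks by the number of protein-coding genes within 0.5 Mb of the peak centre. Red points are single genes from Zfp800 to Zfp999 and red bars their medians, while grey squares are medians over all genes. In the 5 classes that hold members, the red bars lie below the grey squares.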

How the data were processed

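Fast-ATAC profiles of bone marrow Lin-Sca1+cKit+ cells were compared between 2 Helios null and 2 wild-type mice. The submitters' processing notes name Bowtie2 2.3.4.3, bcl2fastq 2.17.1.14, DESeq, HOMER and the genome build mm10 without their roles. The sources used here do not give the peak caller, the pooling of reads for peak calling or the handling of multi-mapping reads. The deposited values are raw counts per peak and library. The deposited mean is a signal, the mean of counts after the authors' scaling. The authors' fold change is a log2 value of Helios null over wild type, deposited with its raw and adjusted p-value.

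Counts were analysed with edgeR 4.0.16 in R 4.3.3, keeping 130754 peaks with filterByExpr by group, scaling by TMM (factors 0.966 to 1.02), and testing genotype with glmQLFit and glmQLFTest, 2-sided, at a Benjamini-Hochberg adjusted p under 0.05. All 182 members passed the filter. CPM values use TMM-scaled library sizes. Differences within a library number use log2 CPM with a prior count of 2. The spread between replicates exceeded counting error (chi-square divided by its degrees of freedom was 5.13 in Helios null and 8.3 in wild type). Mice are the replicates, and reads are not independent molecules. The code was checked on simulated counts.

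Alternatives were DESeq2 1.42.0, limma-voom (limma 3.58.1), other scalings and filters, promoter counts summed per gene, the library number as a block and each library left out. Gene density offsets, start-site peaks, cluster medians and subsets of member peaks were added after seeing the data. Members and gene lists were chosen with earlier results of these data known. Named peaks are, among non-overlapping members of at least median abundance (3.17 CPM), the 6 largest and 6 smallest fold changes, 1 per gene; the 6 highest and 6 lowest promoters; members with a known role; members called in the deposited table; and main partners. Other genes named were chosen after their values were seen. Sequences are from RefSeq.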

Additional observations from a re-analysis of the deposited data

How the results depend on the processing

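The edgeR counts of called peaks moved with the test and with the libraries used, while the median of the members stayed below 0 under every alternative run. Over all peaks 8 were called, against 30595 with the library number as a replicate block, 991 with DESeq2, 4 with limma-voom and 39 to 28120 with 1 library left out. Members called lower were 0, against 60 with the block (12.8% of all peaks) and 6 with DESeq2, and 0 to 52 with 1 library left out, the 52 without wild type 1. Members called higher were 0, against 2 with the block, the Zfp830 promoter and the Zfp839 intron (10.6% of all peaks), and 0 to 2 with 1 library left out. Partner peaks called were 0, against 21 of 107 with the block (a share below the 12.8% lower and 10.6% higher of all peaks together), 1 with DESeq2 and 0 to 14 with 1 library left out. Per the labels, same-numbered libraries share a number and nothing more, the correlation of same-numbered deviations from the group means was 0.371 across peaks, and number also follows sex and depth. The cause of these shifts was not tested.

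The member median of -0.35 was -0.50 with the most accessible peak of each gene. The start-site median of -0.53 ranged over -0.67 to -0.31 with 1 library left out. The second chromosome 17 array, from Zfp871 to Zfp952, had a median of 0.26, against -0.0395 with gene density offsets and 0.19 to 0.36 with 1 library left out. The chromosome 8 array from Zfp930 to Zfp866 had 0.02, against 0.12 with loess offsets on mean signal, -0.0465 with the stricter filter of 1 CPM in 2 libraries, -0.20 with gene density offsets and -0.0755 to 0.0671 with 1 library left out. The array of Zfp872, Zfp809 and Zfp810 had -0.21, against -0.52 with gene density offsets. Single peaks near 0 turned sign. Cbx5 lay at -0.245 with gene density offsets and at -0.0673 to 0.16 with 1 library left out, and Zfp963 at -0.27 with gene density offsets and at -0.0184 to 0.0817 with 1 library left out. Zfp866 lay at -0.13 with gene density offsets, and Zfp868 at 0.0312 with loess offsets. Zfp811 lay at 0.0045 with total counts, at 0.15 with loess offsets and at -0.33 to 0.26 with 1 library left out, and Zfp960 at -0.78 to 0.27. Scaling moved the median of all peaks by less than 0.1 on the log2 scale. The least accessible peaks had the widest errors.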
